A study of Eleusine coracana with 4 samples.

Results

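The loci described here are 41 rice loci of abscisic acid signalling and of classical dehydration responses, read in leaf RNA sequencing of finger millet (Eleusine coracana), a C4 cereal. They were chosen by locus identifier out of the 55986 features of the deposited tables, and all 41 are present there. No names accompany the identifiers in the tables, so the 12 classes below come from the list of loci itself and were not checked against an annotation: 5 dehydrins, 1 LEA3 and 1 SalT locus, 3 ASR, 2 P5CS, 2 trehalose, 3 NCED, 7 clade A PP2C, 10 SAPK, 3 bZIP, 2 NAC and 2 DREB loci. Sequences of these loci were not used here.

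Each of the 4 groups is a single library from the young, fully expanded leaves near the shoot apex of pot-grown seedlings. The groups are Trichy 1 with NaCl at 300 mM from day 20, at the 4-leaf stage, Trichy 1 kept well watered, CO12 with the same salt treatment and CO12 kept well watered. Trichy 1 and CO12 are genotypes of finger millet, and the labels leave it unsaid which of them is the tolerant one of the series title. With 1 library per group no difference has a replicate check, no p-value is given, and all intervals are 95% intervals of counting error only, in which PCR copies count as separate reads. All comparisons below are of these libraries and do not extend to the conditions.

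Abscisic acid is the hormone that plants make when water becomes scarce or soil saline. NCED enzymes cut a carotenoid in the step that usually limits its synthesis. The hormone, bound to its receptors, holds back clade A PP2C phosphatases, which frees SAPK protein kinases (the rice name for SnRK2-type kinases) to phosphorylate bZIP transcription factors. These bind promoter elements of genes such as those of dehydrins, hydrophilic proteins that protect cell structures as water is lost, and of the PP2C phosphatases themselves, which damps the signal. NAC and DREB transcription factors act beside this pathway, P5CS makes the precursor of proline, and trehalose genes make a protective sugar.

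The reads behind these loci were few. The libraries held 2406821 (Trichy 1 salt), 3347497 (Trichy 1 control), 1831353 (CO12 salt) and 6272817 (CO12 control) total gene reads, and 3.93% to 4.52% of them fell outside the 20 most abundant features of the 4 libraries combined. The 41 loci together had 171 reads in Trichy 1 salt, 152 in Trichy 1 control, 98 in CO12 salt and 238 in CO12 control. Of these 659 reads, 92.6% were unique, that is, placed at 1 locus only. Summed over the libraries, the median locus had 7 reads, a number that 88.9% of all features did not reach. A single ASR locus, LOC_Os11g06720, gave 41.9% of the reads. It reached 117 reads in a library, while the next highest locus, the dehydrin LOC_Os11g26790, reached 15. Levels are given as RPM, the total gene reads of a locus per 1000000 total gene reads of the library, and as RPKM, the same per kilobase of gene length, where loci are compared with each other.

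**Figure D1:**
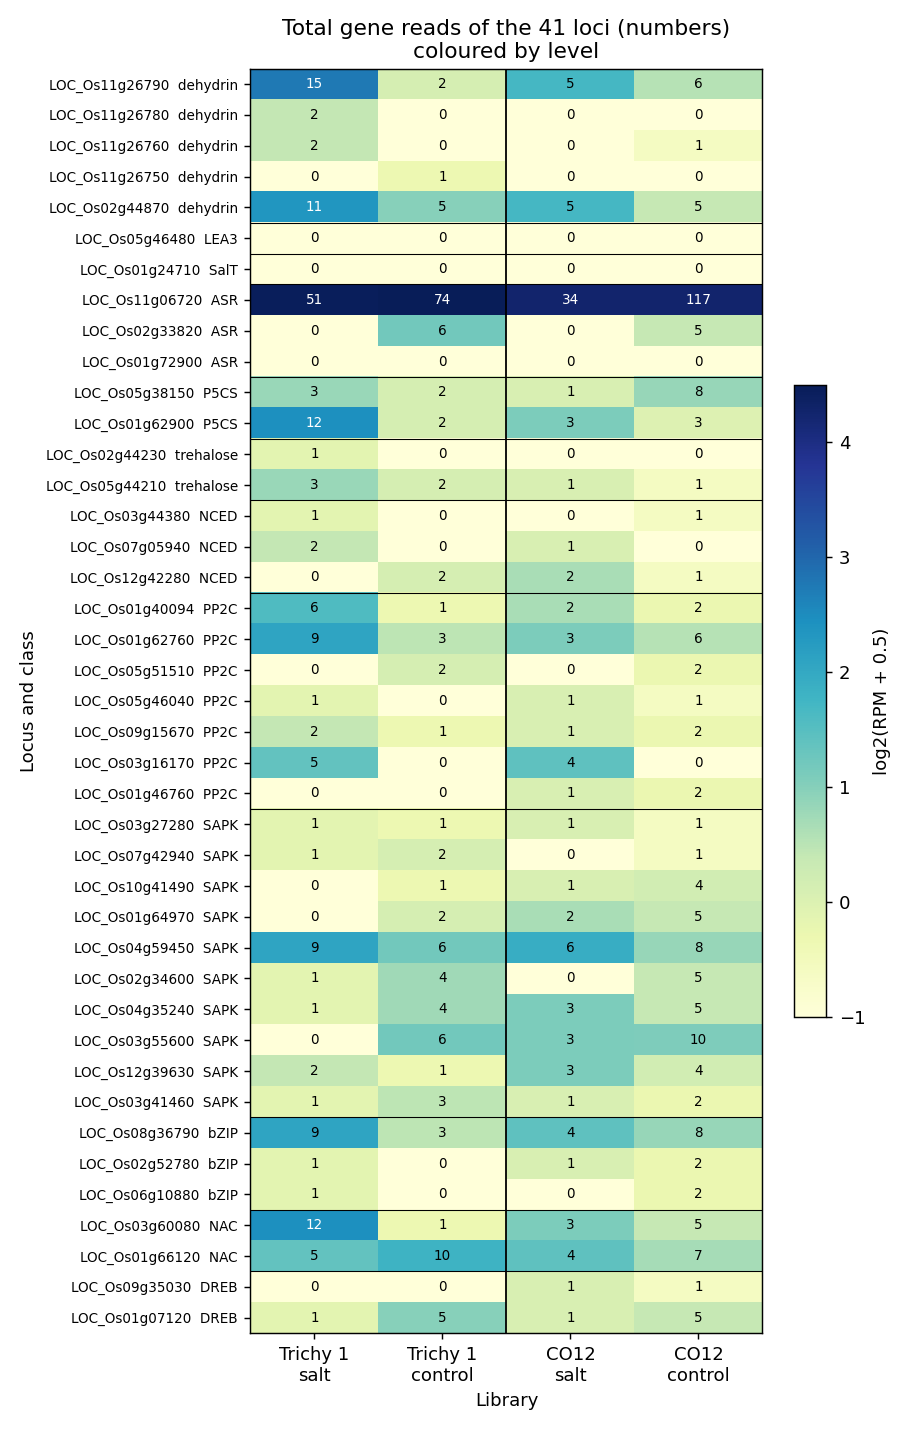
Total gene reads of the 41 loci (numbers in the cells) in the 4 libraries, coloured by log2(RPM + 0.5), with horizontal lines between classes and a vertical line between genotypes. The ASR locus LOC_Os11g06720 is dark in every library, with 51, 74, 34 and 117 reads from left to right, while LEA3, SalT and the ASR locus LOC_Os01g72900 have no reads.

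Detection was incomplete in every library. At least 1 read was found for 29 loci in Trichy 1 salt, 27 in Trichy 1 control, 28 in CO12 salt and 33 in CO12 control. If every library had the total of CO12 salt, 26.1, 21.8, 28 and 21.2 loci would be expected to have a read, which is more in each salt library than in its control. Over all features the same calculation gave 11448, 10711, 11675 and 10949, so the salt libraries also showed more features in general at that total. In all 4 libraries 18 loci had reads, 20 had reads in some of them, and 3 had none. The 3 undetected loci were LEA3 (LOC_Os05g46480 on rice chromosome 5), SalT (LOC_Os01g24710 on chromosome 1) and 1 of the ASR loci (LOC_Os01g72900 on chromosome 1). A count of 0 in all libraries allows a level of up to 0.216 RPM, and in Trichy 1 salt alone up to 1.25 RPM. Reads of finger millet were counted on features named as rice loci, and how well the transcripts of the 2 species match at each locus was not tested, so a count of 0 does not show that a transcript was absent.

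Summed over the 41 loci, the level per library total was higher under salt in both genotypes, although CO12 salt, the shallower library, had fewer reads of them than its control. The summed level was 71.0 RPM in Trichy 1 salt, against 45.4 RPM in Trichy 1 control, a ratio of 1.56 (1.25 to 1.9598). It was 53.5 RPM in CO12 salt, against 37.9 RPM in CO12 control, a ratio of 1.41 (1.10 to 1.79). Without LOC_Os11g06720 the ratios were 2.14 (1.60 to 2.88) in Trichy 1 and 1.81 (1.32 to 2.47) in CO12. Reads outside the 20 most abundant features, scaled in the same way, had log2 ratios of -0.13 in Trichy 1 and 0.07 in CO12, which is close to equality. In whole leaves, a change in the share of cells that hold a transcript and a change in its amount per cell cannot be told apart. In CO12 the sum over all 41 loci depended on the scaling: median-of-ratios factors put its log2 ratio at -0.030, against 0.49 with library totals.

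The single loci were mostly too shallow for a comparison of their own. Only LOC_Os11g06720 reached a floor of 20 reads in any library, and it was not 2-fold apart in any of the comparisons. Among all features at that floor, 2-fold or larger differences under salt were upward for 11.7% and downward for 17.2% in Trichy 1, and for 10.8% and 19.1% in CO12. Between the genotypes, Trichy 1 against CO12, they were upward for 7.54% and downward for 9.19% without salt, and for 7.47% and 5.38% under salt. At a floor of 5 reads in either library, with a prior of 0.5 count, 14 of the 41 loci could be compared in Trichy 1, of which 8 were higher under salt by 2-fold or more and 3 were lower. The background at that floor was 20.5% higher and 21% lower. In CO12, 15 loci could be compared, with 3 higher and 3 lower, beside a background of 16.2% higher and 25.3% lower. The counting interval lay wholly above equality for 7 of the 14 loci in Trichy 1, where 11.3% of all features at that floor did so, and for 0 of the 15 loci in CO12, with a background of 11.4%. Intervals wholly below equality were found for 0 loci in either genotype, with backgrounds of 10.6% in Trichy 1 and 5.78% in CO12. With no floor but 1 read, 18 of 36 loci were higher and 10 lower in Trichy 1, beside 34.3% and 37.8% of all features, and 13 of 35 were higher and 8 lower in CO12, beside 27.9% and 53.8%. Loci reach the floor of 5 reads in part because they were high in the salt library, so these counts describe the loci and are no support for a common response, and the other 27 loci in Trichy 1 and 26 in CO12 had fewer than 5 reads in both libraries.

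**Figure D2:**
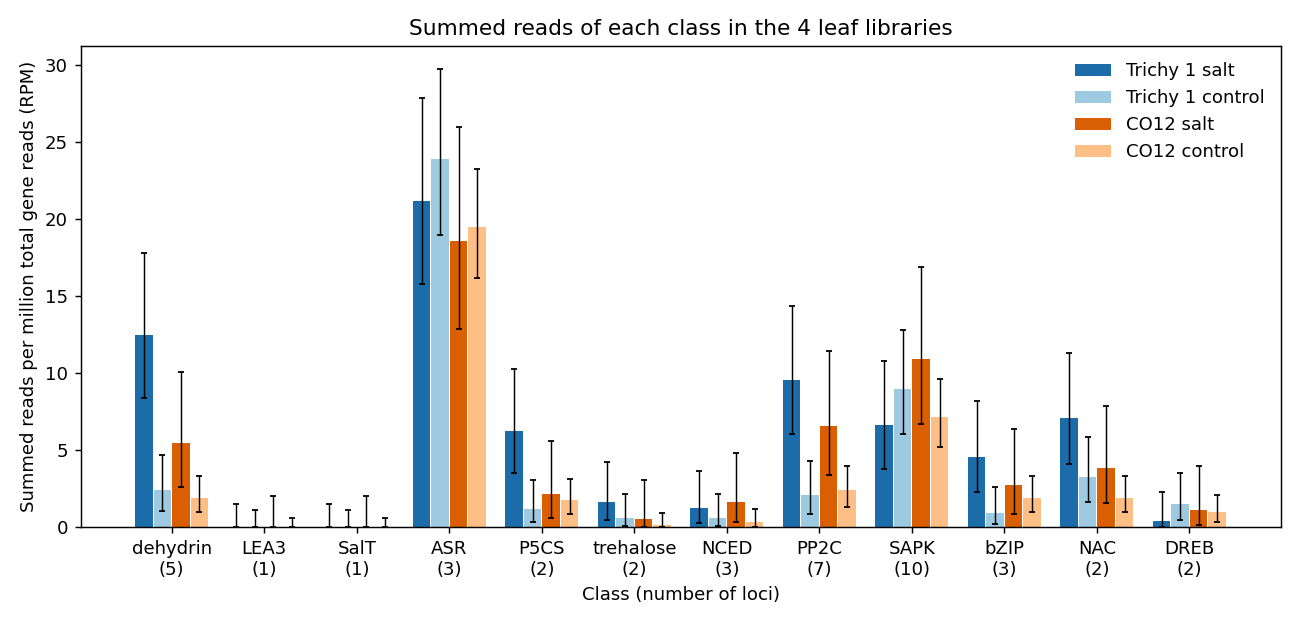
Summed RPM (vertical axis) of each class, with the number of loci in brackets, in the 4 libraries. Bars are single libraries and error bars are exact Poisson 95% intervals. Dehydrin and PP2C loci stand higher in both salt libraries than in both controls. So do P5CS, bZIP, NAC and NCED loci, each on fewer reads than these classes. ASR loci lie between 18.6 and 23.9 RPM in all 4.

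Dehydrin loci had higher levels under salt in both genotypes when scaled to library totals. The 5 loci together had 30 reads in Trichy 1 salt, against 8 in Trichy 1 control, which is 12.5 against 2.39 RPM and a ratio of 5.22 (2.34 to 13.2). In CO12 they had 10 reads under salt, against 12 in the deeper control, or 5.46 against 1.91 RPM, a ratio of 2.85 (1.10 to 7.21). Both salt libraries stood above both controls. In Trichy 1 the class had 19 unique reads under salt, against 7 in control. The log2 ratio with unique reads was 1.80 (0.57 to 3.38), against 2.30 with total reads. In CO12 the interval included equality with unique reads (log2 ratio 1.21, -0.26 to 2.71) and with median-of-ratios factors (0.95, -0.38 to 2.32). The difference of the log2 ratios, Trichy 1 minus CO12, was 0.79 (-0.82 to 2.41), an interval that included 0. With 1 library per group, a difference in response between the genotypes could not be established at any depth.

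Within the class, nearly all reads came from a pair of loci. LOC_Os11g26790 on chromosome 11 (1294 bp) had 15 reads in Trichy 1 salt, 2 in Trichy 1 control, 5 in CO12 salt and 6 in CO12 control. That is 10.4-fold higher under salt in Trichy 1 (2.43 to 94.0), and a ratio of 2.85 in CO12 with an interval that included equality (0.69 to 11.2). Its neighbours LOC_Os11g26780, LOC_Os11g26760 and LOC_Os11g26750 had 2, 3 and 1 reads over all libraries. Of the 34 reads of this chromosome 11 run of 4 loci, 61.8% were unique, so reads may have been shared among these loci. Unique reads of the run were 9 of 19 in Trichy 1 salt, 2 of 3 in Trichy 1 control, 4 of 5 in CO12 salt and 6 of 7 in CO12 control. For LOC_Os11g26790 in Trichy 1 they were 9 of 15 under salt and 2 of 2 in control, so its 10.4-fold ratio counts reads that were not unique. LOC_Os02g44870 on chromosome 2 (1465 bp) had 11 reads in Trichy 1 salt, 5 in Trichy 1 control, 5 in CO12 salt and 5 in CO12 control. Its ratios were 3.06 (0.98 to 11.2) in Trichy 1 and 3.43 (0.79 to 14.9) in CO12, each with an interval that included equality. The log2 difference between the genotypes was -0.24 (-2.48 to 2.01), too wide to say whether the responses were alike. Leaving out LOC_Os11g26790, the remaining 4 dehydrin loci had ratios of 3.48 (1.27 to 10.9) in Trichy 1 and 2.85 (0.69 to 11.2) in CO12.

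ASR proteins are small, very hydrophilic proteins named for abscisic acid, stress and ripening. Their class gave more reads than any other in each of the libraries, and with library totals its level was close to equal with and without salt. LOC_Os11g06720 on chromosome 11 (991 bp) had 21.2 RPM in Trichy 1 salt, 22.1 RPM in Trichy 1 control, 18.6 RPM in CO12 salt and 18.7 RPM in CO12 control. The salt ratio was 0.96 (0.66 to 1.39) in Trichy 1 and 1.00 (0.66 to 1.47) in CO12, and with library totals these counting intervals hold no change of 2-fold in either direction. In CO12 this depended on the scaling. The log2 ratio of the class was -0.59 (-1.19 to -0.03) with median-of-ratios factors, and that of LOC_Os11g06720 was -0.76 (-1.36 to -0.21) with TMM factors over all features, an interval that holds a 2-fold lower level under salt. Per deposited gene length, which may include introns, LOC_Os11g06720 averaged 20.3 RPKM over the libraries. The next locus, LOC_Os11g26790, averaged 2.03 RPKM. The second ASR locus, LOC_Os02g33820 on chromosome 2 (1080 bp), had 0 reads in Trichy 1 salt, 6 in Trichy 1 control, 0 in CO12 salt and 5 in CO12 control, all of them unique. The counting interval of the ratio ran from 0 to 1.18 in Trichy 1 and from 0 to 3.74 in CO12, and both included equality. Summed over the genotypes it had 0 reads in the salt libraries, against 11 in the controls. With 3 counts in place of 0 over the salt libraries, it would be 1.62-fold lower. That fold is not a lower bound, since the counting interval ended at 0.90. Such sums mix the genotypes in unlike shares in the salt and the control reads. They were computed for all classes and loci, and this was the only locus whose summed interval lay below equality. Several lay above it, among them LOC_Os02g44870 (3.63, 1.55 to 8.95) and the SAPK locus LOC_Os04g59450 (2.43, 1.09 to 5.44). In each genotype alone the intervals of these loci included equality.

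Clade A PP2C loci, the phosphatases that damp the hormone signal, had higher levels per library total under salt in both genotypes. The 7 loci had 23 reads in Trichy 1 salt, against 7 in Trichy 1 control (9.56 against 2.09 RPM), a ratio of 4.57 (1.90 to 12.6). In CO12 they had 12 reads under salt, against 15 in control (6.55 against 2.39 RPM), a ratio of 2.74 (1.17 to 6.27). With median-of-ratios factors the CO12 interval included equality (log2 ratio 0.90, -0.30 to 2.12). The difference between genotypes, Trichy 1 minus CO12, was 0.66 on the log2 scale (-0.94 to 2.26). Nearly all PP2C reads, 98.2%, were unique.

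LOC_Os03g16170 on chromosome 3 (2068 bp) was read under salt and not in the controls. It had 5 reads in Trichy 1 salt, 0 in Trichy 1 control, 4 in CO12 salt and 0 in CO12 control, all unique. With 3 counts in place of 0 in each control library, it would be 2.32-fold higher under salt in Trichy 1 and 4.57-fold higher in CO12. These folds are not lower bounds, since the counting intervals began at 1.27 and 2.26. It was the only locus among the 41 whose interval lay above equality in both genotypes. The share of all features that did so in both was not computed, so this count is no support for a shared response. At a floor of 1 read, the interval lay above equality for 7 of 36 loci in Trichy 1, beside 329 of 20467 features. At a floor of 5 reads these were 7 of 14 loci and 329 of 2910 features. Features of fewer reads thus added to the total and not to the 329, so the shares at 1 read also reflect depth. In CO12 the interval lay above equality for 1 of 35 loci at a floor of 1 read, beside 599 of 24267 features. LOC_Os01g62760 on chromosome 1 (2131 bp) had 9 reads in Trichy 1 salt, 3 in Trichy 1 control, 3 in CO12 salt and 6 in CO12 control, with ratios of 4.17 (1.04 to 24.0) in Trichy 1 and 1.71 (0.28 to 8.02) in CO12. LOC_Os01g40094 on chromosome 1 (6368 bp) had 6, 1, 2 and 2 reads in the same order of libraries, a ratio of 8.35 (1.01 to 384) in Trichy 1 and 3.43 (0.25 to 47.3) in CO12. With median-of-ratios factors the Trichy 1 intervals of LOC_Os01g62760 and LOC_Os01g40094 included equality. The other 4 PP2C loci, LOC_Os05g51510, LOC_Os05g46040, LOC_Os09g15670 and LOC_Os01g46760, had at most 2 reads in any library.

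**Figure D3:**
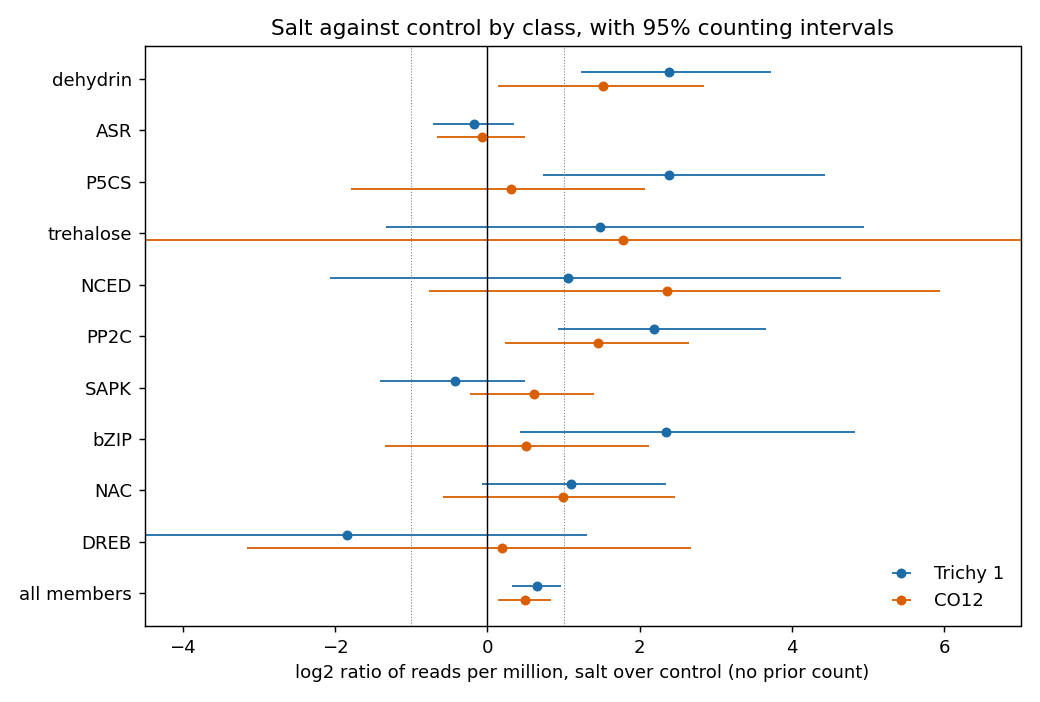
log2 ratio of RPM, salt over control, for each class with reads and for all 41 loci, without a prior count, in Trichy 1 (upper, blue) and CO12 (lower, orange). Lines are exact 95% counting intervals (those of trehalose and DREB run past the axis), and dotted lines mark a 2-fold difference. Dehydrin and PP2C intervals lie above 0 in both genotypes, and P5CS and bZIP intervals do so in Trichy 1.

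The SAPK kinases had no interval beyond equality in either genotype. All 10 loci had reads, and together they had 16 reads in Trichy 1 salt, against 30 in Trichy 1 control (6.65 against 8.96 RPM), a ratio of 0.74 (0.38 to 1.40). In CO12 they had 20 reads under salt, against 45 in control (10.9 against 7.17 RPM), a ratio of 1.52 (0.85 to 2.63). Both intervals included equality, and so did the interval of the difference between genotypes, -1.04 on the log2 scale (-2.18 to 0.11). With unique reads that difference was -1.31 (-2.50 to -0.12), which excludes 0. The levels of kinases and phosphatases were set side by side per deposited gene length. Whether these lengths include introns was not checked, and the comparison depends on it. The mean over SAPK loci was 0.265 RPKM in Trichy 1 salt, 0.255 in Trichy 1 control, 0.345 in CO12 salt and 0.198 in CO12 control. The mean over PP2C loci was 0.555, 0.120, 0.383 and 0.133 RPKM in the same libraries. By this measure the PP2C mean was below the SAPK mean in both controls and above it in both salt libraries. In CO12 salt the margin was small, on 12 PP2C and 20 SAPK reads. Summed RPM, without length, put PP2C above SAPK loci in Trichy 1 salt (9.56 against 6.65). In CO12 salt it put them below (6.55 over 7 PP2C loci, against 10.9 over 10 SAPK loci). These ratios between classes were not given intervals.

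No single SAPK locus had an interval beyond equality in either genotype. LOC_Os04g59450 on chromosome 4 (1937 bp) had 9 reads in Trichy 1 salt, 6 in Trichy 1 control, 6 in CO12 salt and 8 in CO12 control, and its ratios were 2.09 (0.66 to 7.12) and 2.57 (0.73 to 8.44) in Trichy 1 and CO12. LOC_Os03g55600 on chromosome 3 (5560 bp) had 0 reads in Trichy 1 salt, 6 in Trichy 1 control, 3 in CO12 salt and 10 in CO12 control. In Trichy 1 the counting interval of its ratio ran from 0 to 1.18, which included equality, and in CO12 its ratio was 1.03 (0.18 to 3.99). LOC_Os02g34600 on chromosome 2 had 1, 4, 0 and 5 reads, and LOC_Os04g35240 on chromosome 4 had 1, 4, 3 and 5 reads, in the same order of libraries. The remaining SAPK loci had at most 5 reads in any library. Leaving out LOC_Os04g59450, which had the most reads of the class, gave 7 reads in Trichy 1 salt, against 24 in Trichy 1 control, a ratio of 0.41 (0.15 to 0.97), and 14 against 37 in CO12, a ratio of 1.30 (0.65 to 2.45). This split was made after the values were seen.

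Among the transcription factors, the clearest values were those of a bZIP and a NAC locus in Trichy 1. The 3 bZIP loci had 11 reads in Trichy 1 salt, against 3 in Trichy 1 control (4.57 against 0.896 RPM), a ratio of 5.10 (1.35 to 28.5). In CO12 they had 5 under salt, against 12 in control (2.73 against 1.91 RPM), a ratio of 1.43 (0.39 to 4.35). LOC_Os08g36790 on chromosome 8 (6450 bp) carried 24 of the 31 bZIP reads, with 9 in Trichy 1 salt, 3 in Trichy 1 control, 4 in CO12 salt and 8 in CO12 control. Its ratio in Trichy 1 was 4.17 (1.04 to 24.0), with an interval that included equality under unique reads and under median-of-ratios factors. LOC_Os02g52780 and LOC_Os06g10880 had 4 and 3 reads over all libraries. The difference of the class between genotypes was 1.60 on the log2 scale (-0.65 to 3.85), which included 0.

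The ratios of the 2 NAC loci lay on opposite sides of equality in Trichy 1, for LOC_Os01g66120 with an interval that included it. LOC_Os03g60080 on chromosome 3 (1448 bp) had 12 reads in Trichy 1 salt, 1 in Trichy 1 control, 3 in CO12 salt and 5 in CO12 control. It was 16.7-fold higher under salt in Trichy 1 (2.47 to 713), an interval as wide as a single control read makes it, and its ratio in CO12 was 2.06 (0.32 to 10.6). LOC_Os01g66120 on chromosome 1 (3017 bp) had 5 reads in Trichy 1 salt, 10 in Trichy 1 control, 4 in CO12 salt and 7 in CO12 control, with ratios of 0.70 (0.19 to 2.23) and 1.957 (0.42 to 7.70) in Trichy 1 and CO12. Summed, the class had ratios of 2.15 (0.95 to 5.08; above equality with TMM factors) in Trichy 1 and 1.998 (0.67 to 5.50) in CO12. DREB loci had 1 read in Trichy 1 salt, against 5 in Trichy 1 control, and 2 in CO12 salt, against 6 in CO12 control, ratios of 0.28 (0.01 to 2.49) and 1.14 (0.11 to 6.39). All but 2 of their 14 reads belonged to LOC_Os01g07120, and 64.3% of the 14 were unique. LOC_Os01g07120 had 1 read in Trichy 1 salt, 5 in Trichy 1 control, 1 in CO12 salt and 5 in CO12 control.

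P5CS catalyses the first steps from glutamate towards proline. The 2 loci had 15 reads in Trichy 1 salt, against 4 in Trichy 1 control (6.23 against 1.19 RPM), a ratio of 5.22 (1.66 to 21.6). In CO12 they had 4 reads under salt, against 11 in control (2.18 against 1.75 RPM), a ratio of 1.25 (0.29 to 4.20). LOC_Os01g62900 on chromosome 1 (9866 bp) had 12 reads in Trichy 1 salt, 2 in Trichy 1 control, 3 in CO12 salt and 3 in CO12 control. It was 8.35-fold higher under salt in Trichy 1 (1.86 to 76.8), and its ratio in CO12 was 3.43 (0.46 to 25.6). LOC_Os05g38150 on chromosome 5 (7011 bp) had 3, 2, 1 and 8 reads in the same order, with ratios of 2.09 (0.24 to 24.98) in Trichy 1 and 0.43 (0.01 to 3.19) in CO12. The intervals of the 2 loci overlapped in both genotypes, and a difference between the loci was not tested. The difference of the class between genotypes was 1.84 on the log2 scale (-0.35 to 4.02), with 0 inside the interval, and 2.42 (0.24 to 4.60) with TMM factors over all features.

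Hormone synthesis and trehalose were at the edge of detection. The 3 NCED loci had 3 reads in Trichy 1 salt, 2 in Trichy 1 control, 3 in CO12 salt and 2 in CO12 control, ratios of 2.09 (0.24 to 24.98) in Trichy 1 and 5.14 (0.59 to 61.5) in CO12. No NCED locus had more than 2 reads in a library, and 70.0% of the 10 reads were unique. The 2 trehalose loci had 4 reads in Trichy 1 salt, 2 in Trichy 1 control, 1 in CO12 salt and 1 in CO12 control, ratios of 2.78 (0.40 to 30.8) and 3.43 (0.04 to 269) in Trichy 1 and CO12. Of these 8 reads, 7 belonged to LOC_Os05g44210. At these counts neither a difference of 2-fold nor its absence could be told.

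**Figure D4:**
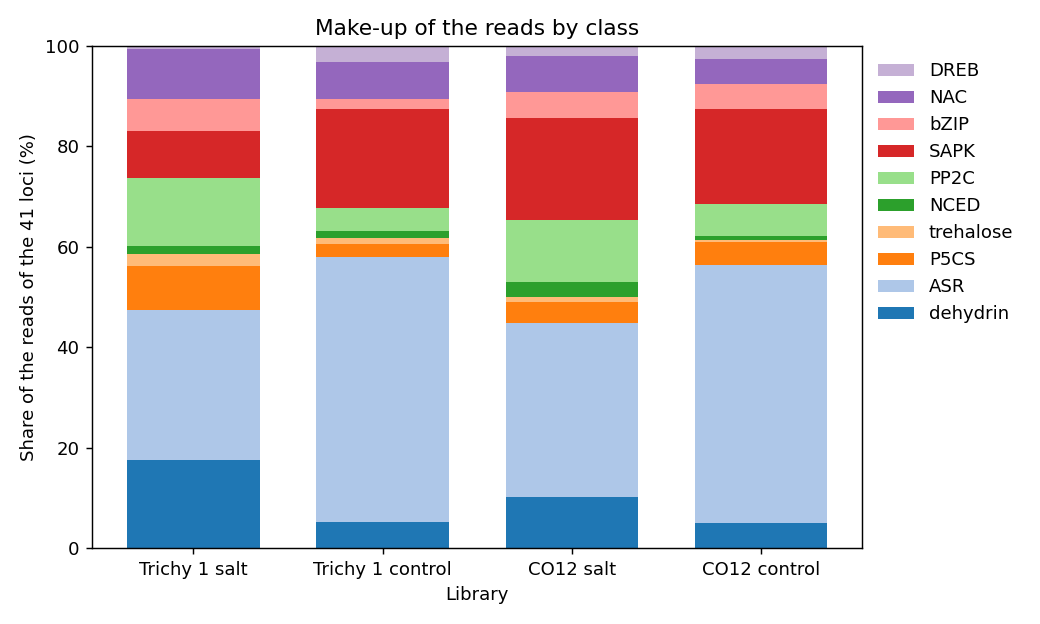
Share of the reads of the 41 loci (vertical axis, percent) taken by each class in the 4 libraries, each bar a single library. ASR loci took 29.8% in Trichy 1 salt, 52.6% in Trichy 1 control, 34.7% in CO12 salt and 51.3% in CO12 control.

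The make-up of the reads within the 41 loci does not depend on how the libraries were scaled. ASR loci took 29.8% of these reads in Trichy 1 salt, against 52.6% in Trichy 1 control, and 34.7% in CO12 salt, against 51.3% in CO12 control. Dehydrin loci took 17.5% in Trichy 1 salt, against 5.26% in Trichy 1 control, and 10.2% in CO12 salt, against 5.04% in CO12 control. PP2C loci took 13.5% against 4.61% in Trichy 1 and 12.2% against 6.30% in CO12. SAPK loci took 9.36% in Trichy 1 salt, against 19.7% in Trichy 1 control, but 20.4% in CO12 salt, against 18.9% in CO12 control. Over 1 set of loci these shares must add up, so a higher share of some classes lowers that of the others.

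Between the genotypes, the summed level of the loci was compared without and with salt. Without salt the summed level was 45.4 RPM in Trichy 1 and 37.9 RPM in CO12, a ratio of 1.20 (0.97 to 1.47). Under salt it was 71.0 RPM in Trichy 1 and 53.5 RPM in CO12, a ratio of 1.33 (1.03 to 1.72), which with unique reads included equality. By class, the interval excluded equality for dehydrins under salt, with 12.5 RPM in Trichy 1 and 5.46 RPM in CO12, a ratio of 2.28 (1.09 to 5.23), and for no other class with or without salt when libraries were scaled to their totals. With unique reads the dehydrin interval included equality too. With median-of-ratios factors the P5CS interval under salt lay just above equality (log2 ratio 1.55, 0.0066 to 3.71), as it did with TMM factors over all features. At a floor of 5 reads, 5 of 11 loci under salt were higher in Trichy 1 by 2-fold or more and 0 were lower, beside backgrounds of 18.5% and 15.3% of all features. All 11 reached that floor in Trichy 1 salt and 4 of them in CO12 salt. The counting interval lay above equality for 0 of the 11 and below it for 0, beside 5.83% and 7.3% of all features. Without salt 2 of 15 were higher and 1 lower, beside 13.9% and 22%. With no floor but 1 read, 12 of 35 were higher and 7 lower under salt, beside 38.9% and 33.4%, and 7 of 34 were higher and 8 lower without salt, beside 23.8% and 44%.

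With library totals, a difference in the salt response of the 41 summed loci was not detectable between the genotypes. The log2 difference of the summed ratios, Trichy 1 minus CO12, was 0.14 (-0.32 to 0.61), and 0.23 (-0.37 to 0.83) without LOC_Os11g06720. It was above 0 with median-of-ratios factors, 0.49 (0.03 to 0.95), and with TMM factors over all features, 0.73 (0.26 to 1.19). With total gene reads scaled to library totals, the interval of this difference included 0 for each of the 10 classes with reads, and it spanned from 1.49 log2 units for ASR to 7.91 for trehalose. The pair of salt comparisons shares no library. The 4 intervals above equality in Trichy 1 (dehydrin, PP2C, P5CS and bZIP) against 2 in CO12 (dehydrin and PP2C) are therefore no measure of a difference between genotypes, and the CO12 salt library was the shallowest of the 4.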

How the data were processed

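Leaf RNA was depleted of ribosomal RNA, fragmented with RNase III, ligated to adapters, amplified and sequenced on an Ion Proton instrument, per the labels' protocols. The authors deposited 1 table per library with counts of total and unique gene reads, which are not normalized, per the file headers. The RPKM values the authors deposited equalled total gene reads per kilobase of the deposited gene length and per 1000000 total gene reads (largest relative difference 5.7e-08). For the aligner, the counting tool and the reference build: not given in the sources used here. Identifiers of the LOC_Os form (55801 of 55986) are those of rice loci. The labelled leaf tissue was not checked, since no leaf marker could be matched to a name.

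The members and classes were chosen with earlier results of these data known. Reads were summed per class. Intervals of ratios are 95% Clopper-Pearson intervals, exact and conditional on the summed reads, and those of single levels are exact Poisson intervals (scipy 1.17.1). log2 ratios behind counts of 2-fold differences add a prior of 0.5 count scaled to depth. A fold against 0 reads puts 3 counts in place of 0 and leaves out the counting error of the other library, so it is not a lower bound. The difference of the salt response has a normal 95% interval with the standard error from the 4 counts. All 41 loci are accounted for, with values in every library for those that reached 5 reads in some library and mattered for their class. That is wider than the planned rule of 20 reads, which only 1 locus met. A planned list of other pathway genes was not matched to names and is not described. Other settings were TMM factors (edgeR 4.0.16, over 655 features with a mean of 20 reads), median-of-ratios factors, totals without the 20 most abundant features, unique reads, other floors and a prior of 2.5 counts. The interval calculation was tested on simulated Poisson counts of features with at least 20 reads over the libraries compared. That checks the calculation only, since the simulation held no PCR copies and no features of fewer reads.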

Additional observations from a re-analysis of the deposited data

How the results depend on the processing

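Each value rests on 1 library per group and on few reads, so both the lack of replicates and depth limit the comparisons. Depth limits them least for LOC_Os11g06720. The floor set the counts of loci 2-fold apart, which were 0 in each comparison at 20 reads. They were 11 (Trichy 1 salt), 6 (CO12 salt), 3 (genotypes without salt) and 5 (genotypes under salt) at 5 reads, and 28, 21, 15 and 19 at 1 read, where most have 1 to 4 reads. The intervals beyond equality, a rule added after seeing the data, gave 7 for Trichy 1 salt. At 20 reads only 1 locus could be compared, so the count of 0 there says nothing about the other settings. Of the loci with reads, 11 (Trichy 1 salt), 7 (Trichy 1 control), 4 (CO12 salt) and 15 (CO12 control) had at least 5, and CO12 control would show 21.2 loci at the lowest total.

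The log2 ratio of the summed reads in CO12 was 0.49 and turned to -0.030 with median-of-ratios factors, computed from 4929 features whose median count was 4, and to -0.26 with TMM factors over all features, an added setting. These factors shifted the ratio of library sizes in CO12 by 0.53 and 0.76 and put the median log2 ratio of all features at the floor at -0.67 and -0.90, against -0.15 with totals. Such factors shift the sum and that median alike, so the direction of the CO12 sum depends on the scaling. Over features with a mean of 20 reads the shifts in CO12 were 0.02 (TMM) and -0.02 (median of ratios), and in Trichy 1 both were -0.19. TMM factors over all features also put the sum between genotypes without salt at -0.18 (0.26 with totals) and the difference of the salt response at 0.73 (0.14 with totals), with an interval above 0. Median-of-ratios factors put that difference at 0.49 (0.03 to 0.95). Without LOC_Os11g06720 the sums were 0.85 in CO12 and 1.09 in Trichy 1. Of 606 values of classes and single loci under other settings, 596 stayed within the counting interval of the reported value, 10 moved beyond it and 0 of the called ones changed sign. Staying within is a weak check, since many of these intervals are wide, such as -4.52 to 8.07 for trehalose in CO12. Some intervals that lay above equality came to include it. Among them were dehydrin and PP2C in CO12 with median-of-ratios factors, and P5CS and bZIP in Trichy 1 without their leading loci. The libraries form 2 salt and control pairs, 1 per genotype, and a fit with genotype as a block was not run.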
